A study of Mus musculus with 6 samples.

Results

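GABA-A receptor subunit genes were followed in mouse brain after a human breast cell line had been implanted in the mouse. The set held 7 genes, chosen by their symbols: the alpha subunit genes Gabra2, Gabra3, Gabra4 and Gabra5, the beta subunit genes Gabrb1 and Gabrb2, and the delta subunit gene Gabrd. They are 7 of the 56748 mouse genes in the table, and all 7 were among the 16162 genes that passed the filter on low values. The 3 later libraries came from brain at day 28 after implantation, and the 3 earlier ones from brain at day 3. The mice of both groups carried MCF10DCIS, a human line that models ductal carcinoma in situ, a breast lesion still confined to the milk ducts. Its cells expressed CD63, a membrane protein of extracellular vesicles, joined to the enzyme NanoLuc. Polyadenylated RNA of homogenized brain was sequenced to compare gene expression between the 2 times. The brain is not the implanted organ, and the strain, sex and age of the mice are not given in the sources used here. Brain of mice without implanted cells was not analysed here, so time after implantation and growing older cannot be told apart. Whether replicates were separate animals is not said in the labels, and p-values therefore cover only the spread between these libraries, part of which may be technical.

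GABA-A receptors are chloride channels opened by the transmitter GABA, and they carry most fast inhibition in the brain. Each receptor is a ring of subunits, usually alpha and beta subunits with a gamma or a delta subunit. The alpha subunit sets where in the neuron the receptor sits and how it responds to benzodiazepines, GABA binds between alpha and beta subunits, and receptors with delta lie outside synapses and give a steady inhibitory current. In rodent brain the proteins of Gabra2 and Gabra3 are found mainly in forebrain receptors that respond to benzodiazepines. The protein of Gabra5 is best known from receptors outside synapses in the hippocampus. The protein of Gabra4 joins delta in the thalamus, striatum and dentate gyrus, while delta joins the protein of Gabra6 in cerebellar granule cells.

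Of the 7 genes, 3 lie in 1 cluster on chromosome 5. RefSeq places Gabrg1, Gabra2, Cox7b2, Gabra4 and Gabrb1 there in this order, with Gabra4 and Gabrb1 head to head on opposite strands. Elsewhere, Gabra5 is next to Gabrg3 on chromosome 7, Gabrb2 next to Gabra6 on chromosome 11 and Gabra3 next to Gabrq on chromosome X, while Gabrd lies on chromosome 4. The RefSeq spans of Gabra4 and Gabrb1 overlap by 388 bases, and 46 exonic bases are shared on opposite strands in the GENCODE M21 annotation. The libraries were stranded, but the strand setting of the counting is not given in the sources used here, so reads from those bases cannot be assigned to 1 of the 2 genes. Upstream sequence of the 3 clustered genes is shown because Gabra4 and Gabrb1 had the largest day 28 minus day 3 log2 differences among the 7. The sequences are from RefSeq on GRCm38.p6, an older build than the GRCm39 of the deposited table, read 5′ to 3′ on each gene's own strand, with the letters GGGCGG or their reverse complement (a GC box) in capitals.
Gabra2, chr5:71095850-71096099, minus strand: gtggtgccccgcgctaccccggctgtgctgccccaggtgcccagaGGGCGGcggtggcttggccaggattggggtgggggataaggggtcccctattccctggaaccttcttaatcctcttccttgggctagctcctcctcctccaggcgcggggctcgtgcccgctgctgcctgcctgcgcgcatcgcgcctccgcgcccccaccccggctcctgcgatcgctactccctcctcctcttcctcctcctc
Gabra4, chr5:71658364-71658558, minus strand: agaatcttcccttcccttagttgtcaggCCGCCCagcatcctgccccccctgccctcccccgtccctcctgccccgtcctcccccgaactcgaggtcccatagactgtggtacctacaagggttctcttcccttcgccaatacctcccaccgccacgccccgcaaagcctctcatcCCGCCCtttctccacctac
Gabrb1, chr5:71699682-71699931, plus strand: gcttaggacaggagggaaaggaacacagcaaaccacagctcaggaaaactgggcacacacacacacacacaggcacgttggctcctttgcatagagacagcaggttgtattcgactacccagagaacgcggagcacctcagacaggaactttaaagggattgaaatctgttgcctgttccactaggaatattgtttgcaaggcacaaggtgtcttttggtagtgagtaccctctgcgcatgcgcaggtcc

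The Gabra2 and Gabrb1 sequences are the 250 bases before an annotated start. RefSeq gives 2 such windows for Gabrb1, and the one shown is that of a start further inside the gene. The window at the head-to-head start (64.4% GC) was left out. The bases just after that start were not found in a GENCODE M21 transcript of Gabrb1, which was the condition for showing a window. In turn, the 195 bases of Gabra4 stop short of its start, where the untranslated part of an annotated transcript, on either strand, overlaps the window. The GC content of the sequences shown was 70% for Gabra2, 63.6% for the 195 bases of Gabra4 and 50.8% for Gabrb1. The whole window of 250 bases of Gabra4 had 61.2%. The median was 52.4% over 32851 RefSeq windows of 250 bases before a start. In all, 6 of the 7 genes had such a window. A GC box stood 205 bases before the start in Gabra2, and 222 and 74 bases before it in Gabra4, and 32.7% of all windows hold 1 on either strand. Gabrb2 has several annotated starts, and only the window of the furthest upstream one held any of the motifs. The bases after that start were not found in a GENCODE M21 transcript of Gabrb2, while those after another of its starts were. A GC box stood 233 bases before the furthest upstream start. It was overlapped by the letters GCGNGGGCG at 232, to which EGR factors bind and which 4.7% of windows hold. The letters TATAAA, held by 12.4% of windows, stood 30 bases before the same furthest upstream start in Gabrb2. In Gabra3 they stood once, 123 or 235 bases before the start of its overlapping windows. An E-box of the NeuroD type, CAGATG, was found in Gabra5 at 223 bases and in 14.4% of windows. No window of the 6 genes held the cAMP response element TGACGTCA, which 1.55% of all windows hold. Both strands were searched for each motif, and a match describes the letters alone.

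Markers of brain cells were present in every library. Neurons (Rbfox3, Snap25, Syt1) summed to 59274 to 62377 normalized counts at day 28 and 55474 to 60422 at day 3, and no marker of astrocytes, oligodendrocytes, microglia or endothelium was at 0 anywhere. Depth ran from 14230520 to 16059196 reads at day 28 and from 11958137 to 15033955 at day 3. Replicates differed by more than counting error (chi-square over degrees of freedom from 8.93 to 44.7). In genes of the cerebellum, replicates 1 and 2 of day 3 stood apart from the other 4 libraries. Over 10 genes of cerebellar granule cells, the excitatory neurons that fill the cerebellar cortex, the summed level was 23027 and 21420 normalized counts in them. It was 3867, 4706 and 6269 at day 28 and 4151 in day 3 replicate 3, and 3 of the 10 genes (Gabra6, Fat2 and Barhl1) were at 0 in at least 1 library.

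None of the 7 subunit genes passed the test between day 28 and day 3 after adjustment over all genes (limma, adjusted p from 0.242 to 0.832), where 0.192% of genes passed in either direction. The difference, day 28 minus day 3 on the log2(normalized count + 1) scale, was positive for 6 genes and negative for Gabrd. Its median over the 7 was 0.20, beside -0.01 over all genes tested, of which 7854 had a positive difference and 8308 a negative one. Leaving out day 3 replicate 2 gave a median of 0.12, leaving out day 3 replicate 3 gave 0.31, and a covariate for the granule cell genes gave 0.096. Summed over the 7 genes, the level was 12321, 13356 and 13160 normalized counts in day 28 replicates 1 to 3, against 10863, 10496 and 12246 in those of day 3. These sums made up 0.0867%, 0.0931% and 0.0928% of all reads at day 28 and 0.0789%, 0.0725% and 0.0841% at day 3. Every day 28 sum was thus above every day 3 sum, by little for day 28 replicate 1 over day 3 replicate 3. In bulk tissue, fewer cells of a type and less RNA per cell cannot be told apart.

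**Figure D1:**
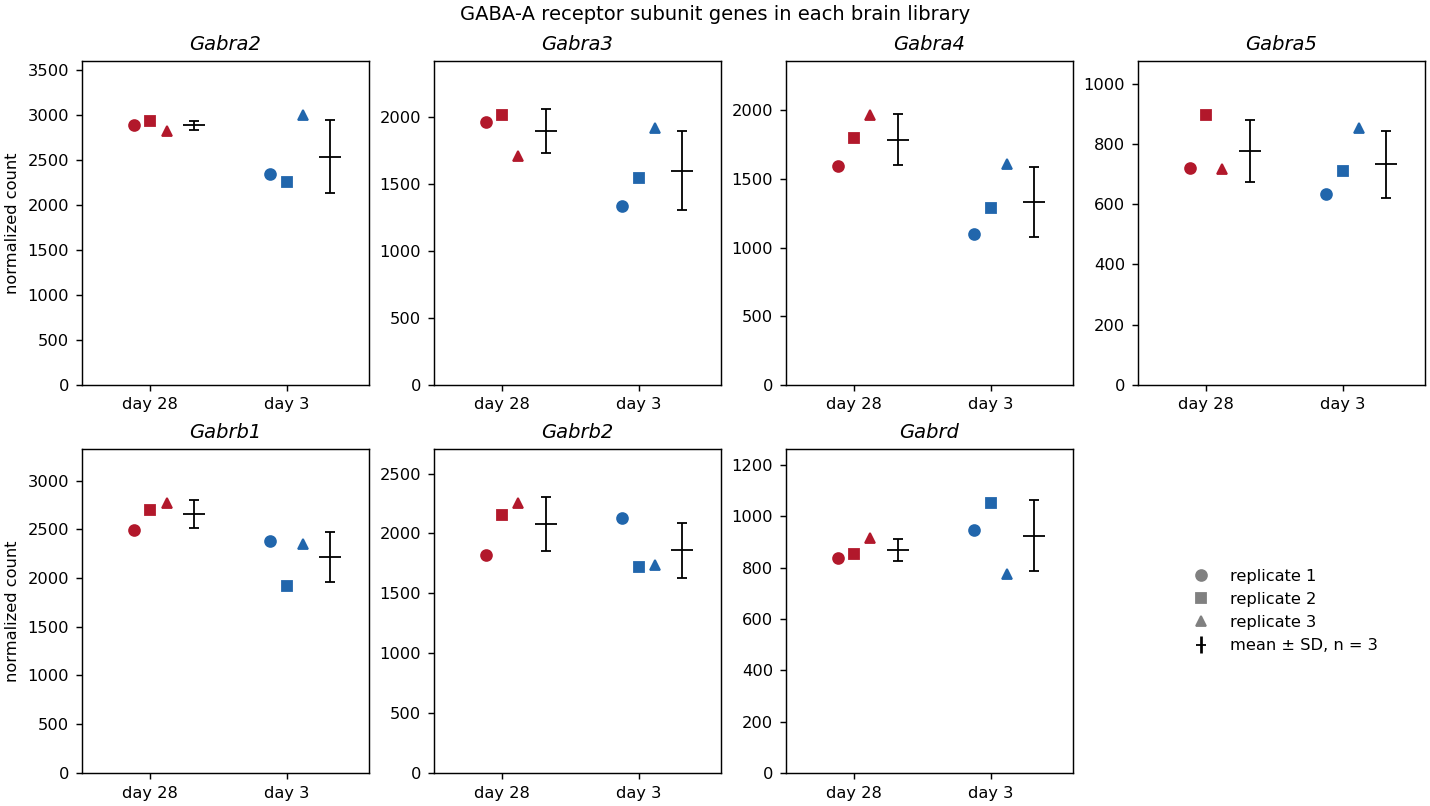
Normalized counts (y axis, from 0) of the 7 subunit genes in each library, day 28 in red on the left and day 3 in blue on the right of each panel, with circles, squares and triangles for replicates 1, 2 and 3 and bars for the mean ± SD (n = 3). The groups are apart in Gabrb1 alone, and day 3 replicate 3 (blue triangle) is the highest of its group for the 4 alpha subunit genes.

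Among the alpha subunits, Gabra4 (ENSMUSG00000029211) had the largest difference. Its level was 1593, 1801 and 1965 normalized counts in day 28 replicates 1 to 3, against 1099, 1285 and 1609 in day 3 replicates 1 to 3. All day 28 libraries exceeded day 3 replicates 1 and 2, but day 3 replicate 3 lay just above day 28 replicate 1, so the groups overlapped. The means were 1786 ± 186 at day 28 and 1331 ± 258 at day 3 (SD, n = 3 each). The log2 difference was 0.44 (SE 0.15, 95% interval 0.11 to 0.77, limma adjusted p = 0.242). Without day 3 replicate 3 it was 0.58 and passed (limma adjusted p = 0.0447), in a fit where 623 of all genes tested passed, against 31 with all libraries. Without both day 3 libraries high in granule cell genes it was 0.15, with 1 library left at day 3 that is assumed to vary like the others.

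Gabra2 (ENSMUSG00000000560) had the highest mean normalized count of the 7 genes in both groups before scaling by length, though Gabrb1 exceeded it in day 3 replicate 1. It stood at 2895, 2935 and 2828 in the day 28 libraries, against 2348, 2261 and 3002 in those of day 3. The day 28 values lay close together, and day 3 held both the lowest value and, in replicate 3, the highest. Group means were 2886 ± 53.9 at day 28 and 2537 ± 405 at day 3 (SD, n = 3 each). The difference of 0.20 on the log2 scale had an interval from -0.06 to 0.46, a fold between 0.957 and 1.37 (SE 0.11, limma adjusted p = 0.50). Leaving out day 3 replicate 2 gave 0.12 and leaving out day 3 replicate 3 gave 0.32. Without both granule-rich libraries the sign turned, to -0.057.

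Gabra3 (ENSMUSG00000031343) had 1962, 2016 and 1714 normalized counts at day 28, against 1335, 1545 and 1923 at day 3. Here too day 3 replicate 3 stood among the day 28 libraries, above day 28 replicate 3, while the other 2 day 3 libraries were the lowest of all. The means were 1897 ± 161 at day 28 and 1601 ± 298 at day 3 (SD, n = 3 each), a log2 difference of 0.26 (SE 0.14, interval -0.06 to 0.57, limma adjusted p = 0.458). Removing day 3 replicate 1 gave 0.13, removing day 3 replicate 3 gave 0.40, and removing both granule-rich libraries gave -0.023.

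The hippocampal subunit gene Gabra5 (ENSMUSG00000055078) had 720, 896 and 717 normalized counts at day 28, against 634, 712 and 853 at day 3. The groups lay over each other, with day 28 replicate 2 highest and day 3 replicate 1 lowest. The means were 778 ± 103 at day 28 and 733 ± 111 at day 3 (SD, n = 3 each). The log2 difference was 0.09 (SE 0.14, limma adjusted p = 0.832), and its interval from -0.23 to 0.41 allows a fold between 0.850 and 1.33. Its sign turned when day 28 replicate 2 was left out (-0.018), when day 3 replicate 1 was (-0.011) and when both granule-rich libraries were (-0.14).

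Of the beta subunits, which form the GABA binding face with alpha, Gabrb1 (ENSMUSG00000029212) was the only member whose groups did not overlap. Its level was 2493, 2699 and 2769 normalized counts at day 28, against 2377, 1918 and 2349 at day 3. The lowest day 28 library exceeded the highest day 3 library by a small margin, and day 3 replicate 2 was far below the rest. Of all genes tested, 9.71% had day 28 above day 3 in every library, against 1 of the 7 subunit genes. The means were 2654 ± 143 at day 28 and 2214 ± 257 at day 3 (SD, n = 3 each). A log2 difference of 0.27 (SE 0.11, interval 0.03 to 0.51) did not pass (limma adjusted p = 0.321). Unlike those of Gabra2 and Gabra3, it was still positive, at 0.17, without both granule-rich libraries. Before adjustment, Gabra4 and Gabrb1 were 2 of 7 genes with p under 0.05 and a higher level at day 28, beside 6.98% of all genes. In either direction, 2161 of the 16162 genes tested had p under 0.05 with all libraries, the 2 subunit genes among them. The number of subunit genes was 4 with day 3 replicate 3 left out (2750 of all genes) and 3 with day 3 replicate 1 left out (2967). It was 1 with replicate 2 of day 28 (1664) or of day 3 (1532) left out, and 0 with day 28 replicate 3 left out (1544). It was also 0 with the granule cell covariate (1279 of all genes) or with no intensity trend (1885).

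Gabrb2 (ENSMUSG00000007653) had 1821, 2155 and 2253 normalized counts at day 28, against 2125, 1723 and 1733 at day 3. Replicate 1 went against its group at both times, low at day 28 and high at day 3. The means were 2076 ± 226 at day 28 and 1860 ± 229 at day 3 (SD, n = 3 each), and the log2 difference was 0.16 (SE 0.12, interval -0.11 to 0.43, limma adjusted p = 0.604). It was 0.25 without both granule-rich libraries.

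The delta subunit gene Gabrd (ENSMUSG00000029054) was the only member with a negative difference. It had 838, 854 and 916 normalized counts at day 28, against 945, 1052 and 776 at day 3. The 3 day 28 libraries fell inside the range of day 3, which was high in the 2 granule-rich libraries and low in replicate 3. The means were 869 ± 41.2 at day 28 and 925 ± 139 at day 3 (SD, n = 3 each). The log2 difference was -0.08 (SE 0.12, limma adjusted p = 0.826), with an interval of -0.36 to 0.20 that allows a fold between 0.778 and 1.15. The sign turned when day 3 replicate 2 was left out (0.019) and when both granule-rich libraries were (0.16).

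Spread within groups was wider at day 3 for all 7 genes, and day 3 replicates also differed more from each other over all genes tested. The coefficient of variation ran from 1.87% (Gabra2) to 13.2% (Gabra5) at day 28 and from 11.6% (Gabrb1) to 19.4% (Gabra4) at day 3. The gap was widest for Gabra2, with 1.87% at day 28 and 16.0% at day 3, and narrowest for Gabrb2, with 10.9% at day 28 and 12.3% at day 3. Fewest reads lay behind Gabrd and Gabra5, which had at least 638 and 692 reads in each library.

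Divided by length, the subunit genes fell into a different order than by count. Per kb of the longest coding transcript (GENCODE M21), the day 28 levels were 520 ± 56.8 normalized counts for Gabrb2, 518 ± 44.0 for Gabra3, 493 ± 9.21 for Gabra2, 452 ± 21.4 for Gabrd, 435 ± 45.3 for Gabra4, 291 ± 38.5 for Gabra5 and 193 ± 10.4 for Gabrb1 (SD, n = 3). At day 3 they were 481 ± 72.3 for Gabrd, 466 ± 57.5 for Gabrb2, 437 ± 81.3 for Gabra3, 434 ± 69.3 for Gabra2, 324 ± 62.8 for Gabra4, 274 ± 41.6 for Gabra5 and 161 ± 18.7 for Gabrb1. At day 28 Gabrb2, Gabra3 and Gabra2 overlapped with their neighbours in this order, as Gabrd did with Gabra4. Gabrd stood below Gabra2, Gabra5 below Gabra4 and Gabrb1 below Gabra5 in every library. At day 3 all neighbours overlapped except Gabrb1, which was again below Gabra5 in every library. Gabrb1 had the second highest mean count and the lowest level per length, since its longest transcript has 13737 bases against 1921 for Gabrd. Over all exonic bases instead, Gabra3 came first at both times (483 at day 28 and 408 at day 3) and Gabrb1 last (192 at day 28 and 160 at day 3). The transcripts used in these brains are not known from counts per gene, so the order among the leading genes rests on the chosen length.

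**Figure D2:**
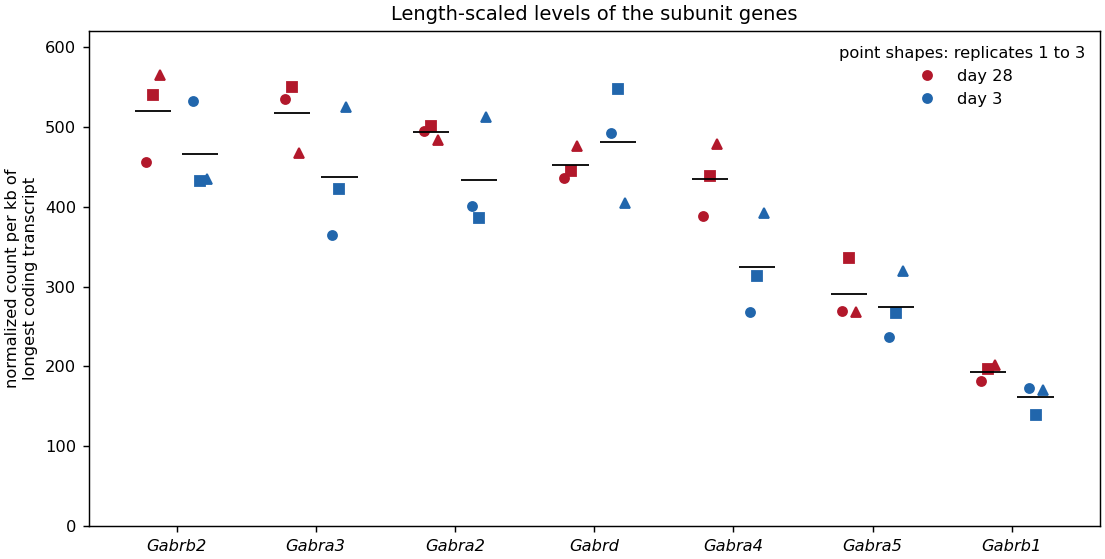
Normalized counts per kb of the longest coding transcript (y axis, from 0) of the 7 subunit genes, day 28 in red to the left of day 3 in blue for each gene, with 1 point a library and a line at the mean (n = 3). Gabrb2, Gabra3, Gabra2, Gabrd and Gabra4 lie between 388 and 565 at day 28, and Gabra5 and Gabrb1 lie below them.

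Ratios of 2 subunit genes within a library do not depend on how libraries are scaled. For Gabrd over Gabra4, genes whose proteins share a receptor in the forebrain, the log2 ratio was -0.93, -1.08 and -1.10 at day 28, against -0.22, -0.29 and -1.05 at day 3. Day 3 replicate 3 had the ratio of a day 28 library, and the 2 granule-rich libraries stood apart from the other 4. The mean ratios were -1.03 ± 0.09 at day 28 and -0.52 ± 0.46 at day 3 (SD, n = 3 each). Their difference of -0.52 gave an exact two-sided permutation p of 0.2 (0.6 adjusted over the 6 ratios computed), in a design whose smallest possible p is 0.1.

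The other 5 ratios also overlapped between groups. Gabra2 over Gabra4 was 0.86, 0.70 and 0.53 at day 28, against 1.09, 0.81 and 0.90 at day 3 (difference -0.24, exact permutation p = 0.2, adjusted 0.6). Only day 28 replicate 1 lay within the day 3 range. Gabra3 over Gabra2, 2 alpha genes of the forebrain, had the narrowest difference, with -0.56, -0.54 and -0.72 at day 28 and -0.81, -0.55 and -0.64 at day 3 (difference 0.06, exact permutation p = 0.6, adjusted 0.7). The difference was -0.07 for Gabra2 over Gabrb1, -0.11 for Gabra5 over Gabra2 and 0.11 for Gabrb1 over Gabrb2, with adjusted exact permutation p from 0.6 to 0.7. With single libraries left out, Gabra5 over Gabra2 ran from -0.20 (without day 28 replicate 2) to -0.048 and Gabrb1 over Gabrb2 from 0.058 to 0.20.

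**Figure D3:**
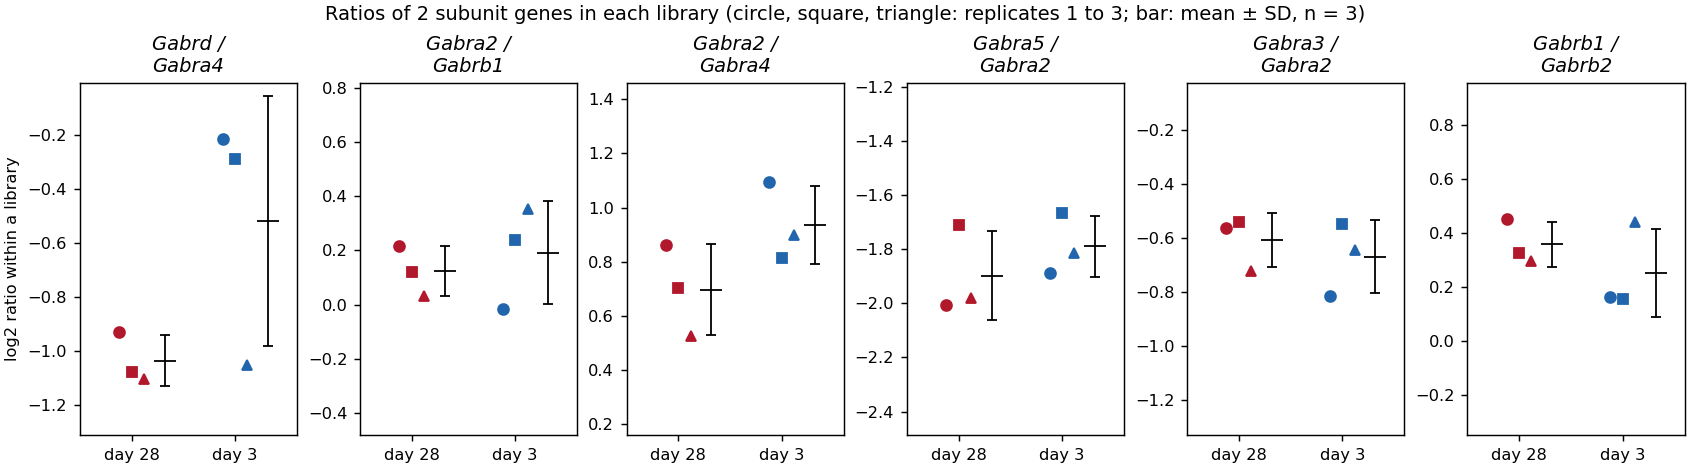
Log2 ratios of normalized counts of 2 subunit genes within a library (y axis, each panel on its own range of equal height), day 28 in red left of day 3 in blue, with circles, squares and triangles for replicates 1, 2 and 3 and bars for the mean ± SD (n = 3). Gabrd over Gabra4 is near -0.2 to -0.3 in day 3 replicates 1 and 2 and near -1 in the other 4 libraries, and the groups overlap in all 6 panels.

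Read library by library, the subunit genes did not share 1 pattern. Deviations from a gene's own mean over the 6 libraries were, for Gabra4, 0.06, 0.24 and 0.36 on the log2 scale at day 28, against -0.48, -0.25 and 0.07 at day 3. Those of Gabrd were -0.09, -0.06 and 0.04 at day 28, against 0.08, 0.24 and -0.20 at day 3. Gabra2, Gabra3, Gabra4 and Gabra5 were below their mean in day 3 replicates 1 and 2 and above it in replicate 3, whereas Gabrd did the opposite and Gabrb1 was below its mean in all 3. Averaged over the 7 genes, the deviation was 0.02, 0.15 and 0.11 at day 28, against -0.16, -0.15 and 0.02 at day 3. Centred log2 values of Gabra2 and Gabra3 differed by a root mean square of 0.10 over the 6 libraries, those of Gabrb1 and Gabrb2 by 0.12 and those of Gabrd and Gabra4, the widest pair, by 0.37.

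Gene lists for brain regions also differed between libraries. On average the 10 granule cell genes deviated by -2.23, -2.03 and 0.63 at day 28, against 2.65, 2.57 and -1.58 at day 3. The 4 alpha genes were below their mean and Gabrd above it in the 2 libraries where these genes were highest. All 10 had a negative day 28 difference, and so did all 8 Purkinje cell genes, whose sums were 13699 to 16407 normalized counts at day 28 and 11907 to 29833 at day 3. The 12 genes of striatal medium spiny neurons deviated on average by 0.59, 0.23 and 0.30 at day 28, against -0.66, -0.45 and -0.01 at day 3. All 12 differences were positive, with sums of 36326 to 45112 at day 28 and 20628 to 30389 at day 3 and no gene at 0. Of the region lists, this was the one with a member past the threshold: Rgs9, a striatal regulator of G protein signalling, rose by 1.04 on the log2 scale (limma adjusted p = 0.0411). Of 18 alternatives, Rgs9 passed in 8, and its call was lost with voom, the replicate block, the granule cell covariate, no intensity trend, without both granule-rich libraries and with any 1 library but day 3 replicate 3 left out, while its log2 difference ran from 0.89 to 1.19. Cortical excitatory neuron genes (9 of 10 positive) summed to 23828 to 26517 at day 28 and 19806 to 24245 at day 3. Inhibitory interneuron genes (9 of 10 positive) summed to 9213 to 9544 at day 28 and 7081 to 9199 at day 3, and no gene of either list was at 0. The median log2 difference was 1.04 for genes of the olfactory bulb and of neuroblasts. It was -3.12 for hindbrain neuron genes (6 of 8 at 0 in at least 1 library), -0.20 for thalamic genes and -0.02 for hippocampal genes. Averaged over its genes, the olfactory list deviated by 1.45, 0.64 and -0.06 at day 28, against -0.85, -0.84 and -0.33 at day 3. Thalamic genes summed to 8356 in day 28 replicate 1, 13107 and 14736 in replicates 2 and 3, and 12060 to 14178 at day 3.

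A list of long neuronal transcripts had the sign of most subunit genes. These 12 genes had a median log2 difference of 0.31, 11 of 12 positive, and summed to 36936 to 38131 normalized counts at day 28 and 30374 to 33506 at day 3, with no gene at 0. Oligodendrocyte markers summed to 56162 to 69361 at day 28 and 80195 to 98119 at day 3, and astrocyte markers to 15050 to 16271 at day 28 and 21634 to 23222 at day 3. The astrocyte gap lay largely in Aldoc, a glycolytic enzyme, with 9924 ± 592 at day 28 and 15897 ± 1006 at day 3 (SD, n = 3 each), which fell by 0.68 on the log2 scale (limma adjusted p = 0.0345) and passed in 9 of the 18 alternatives. Aqp4 averaged 2081 at day 28 and 2728 at day 3, with overlapping groups, and Gja1 3828 at day 28 and 3879 at day 3. Sums for microglia (2258 to 2592 at day 28 and 1857 to 2703 at day 3) and endothelium (1756 to 1888 at day 28 and 1460 to 2277 at day 3) overlapped. The microglia markers went different ways. The log2 difference was 0.60 for P2ry12, whose groups did not overlap (limma adjusted p = 0.165). With overlapping groups, it was 0.28 for Cx3cr1 and -0.25 for Csf1r. The part of region, glial or long-transcript genes in the subunit differences was not tested. With a covariate for the granule cell genes, the log2 differences were 0.32 for Gabra4, 0.27 for Gabrb2, 0.24 for Gabrb1, 0.10 for Gabrd, 0.03 for Gabra2, 0.03 for Gabra3 and -0.09 for Gabra5, with no adjusted p under 0.683.

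**Figure D4:**
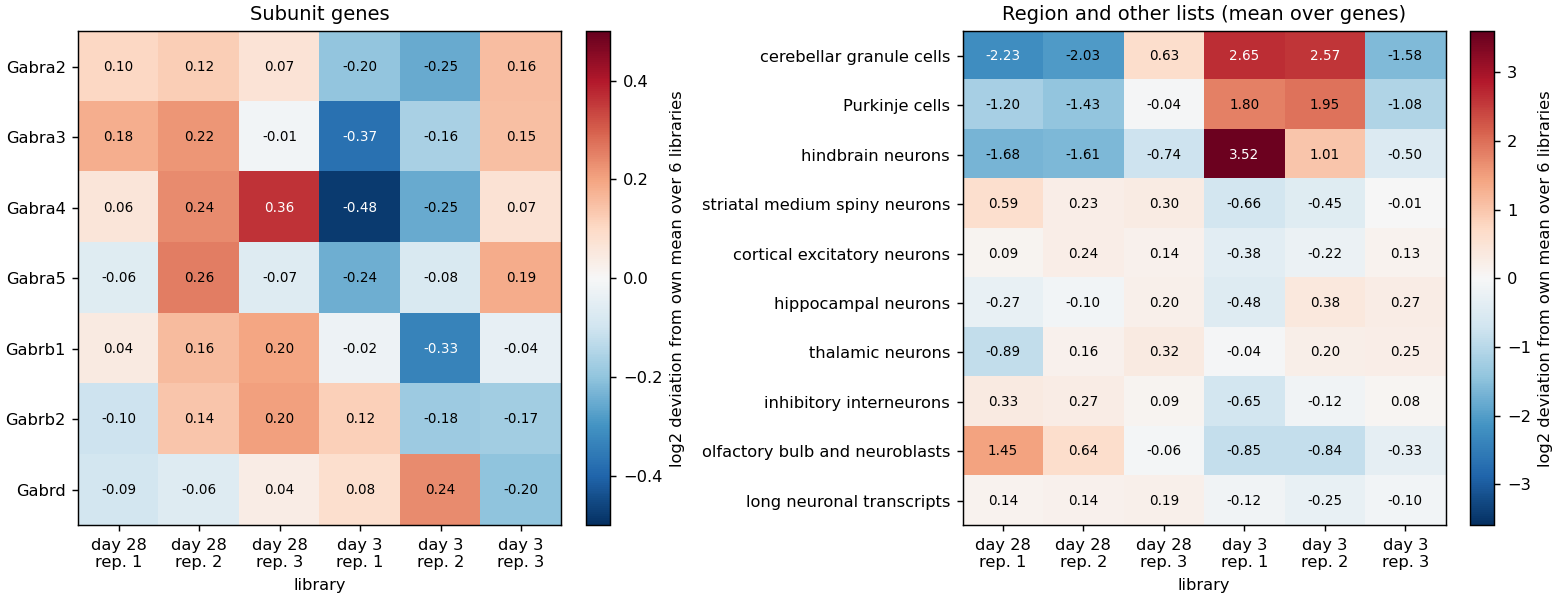
Log2 deviation of each subunit gene (left) and of the mean of each region list (right) from its own mean over the 6 libraries, with a column a library, day 28 left of day 3, red above and blue below the mean, and a separate colour scale for each panel. In day 3 replicates 1 and 2 the 4 alpha subunit genes lie below their mean (-0.08 to -0.48) and the granule cell genes far above it (2.65 and 2.57).

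Around the receptor, 0 of the 52 tested genes among 55 listed GABA pathway genes passed in either direction, with 27 positive and 25 negative differences and a median of 0.0044. Before adjustment, 8 of the 52 had p under 0.05 and a higher level at day 28, beside the 6.98% of all genes given above, and 6 of 52 had groups that did not overlap with day 28 higher, beside 9.71%.

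Of these genes Gabrg3, a gamma subunit gene and the neighbour of Gabra5, had the smallest adjusted p. It had 701, 787 and 744 normalized counts at day 28, against 395, 444 and 537 at day 3. Every day 28 library exceeded every day 3 library by a wide margin. The log2 difference of 0.71 (SE 0.13, interval 0.40 to 1.01) did not pass (limma adjusted p = 0.0829). Gabrg1, next to Gabra2, had 541, 617 and 503 at day 28 against 380, 380 and 505 at day 3, with a log2 difference of 0.40 (limma adjusted p = 0.291), and day 3 replicate 3 reached into the day 28 range. The granule cell subunit gene Gabra6 had no read in day 28 replicates 1 and 2 or in day 3 replicate 3, 200 normalized counts in day 28 replicate 3, and 2102 and 2177 in day 3 replicates 1 and 2. Its log2 difference of -4.83 had an SE of 3.05 (limma adjusted p = 0.533), and it split the libraries as the granule cell list did, to which it belongs. Gabrq and Gabre were low, with at most 148 reads in a library, and Gabrr1 and Gabrr2 did not reach the filter.

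Genes of GABA synthesis did not pass either. Gad1, which makes most of the GABA of the cell body, had 7024, 5559 and 4926 normalized counts at day 28, against 3966, 4425 and 4494 at day 3. Its log2 difference was 0.43 (SE 0.13, limma adjusted p = 0.211). Gad2, the synthetic enzyme of nerve terminals, had 4198, 4229 and 3749 at day 28, against 2944, 3076 and 3720 at day 3 (log2 difference 0.33, SE 0.11, limma adjusted p = 0.240). In both genes the groups did not overlap, by a narrow margin in Gad2. The list of synthesis, release, uptake and breakdown had 6 positive and 4 negative differences among 10 genes, with a median of 0.03.

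Scaffold and accessory genes were nearly evenly split, 8 positive and 9 negative of 17. Shisa7, an accessory protein of the receptor, had 2744, 2069 and 2310 normalized counts at day 28, against 1675, 1259 and 2158 at day 3 (log2 difference 0.51, SE 0.19, limma adjusted p = 0.288). Slitrk3, an adhesion protein of inhibitory synapses, had 1146, 1262 and 1295 at day 28, against 877, 779 and 1213 at day 3 (log2 difference 0.39, SE 0.16, limma adjusted p = 0.327). In both genes day 3 replicate 3 reached into the day 28 range. Gephyrin (Gphn), the scaffold under receptors at inhibitory synapses, had 1041 ± 50.5 normalized counts at day 28 and 1140 ± 110 at day 3 (SD, n = 3 each) and was named after its value was seen.

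Of 5 regulators of subunit transcription, Egr3, an activity-induced factor known in rat neurons to raise transcription of Gabra4, had 2849, 2805 and 2434 normalized counts at day 28, against 725, 1510 and 2056 at day 3. The groups did not overlap, and day 3 replicate 1 was the lowest library. The log2 difference was 1.04 (SE 0.31, interval 0.32 to 1.75, limma adjusted p = 0.208). Creb1 had a log2 difference of -0.13 (limma adjusted p = 0.590). Among 9 genes of chloride transport and GABA-B receptors, Kctd16, a GABA-B receptor partner, had 0.56 (SE 0.24, limma adjusted p = 0.352) and Wnk1, a kinase that regulates chloride transporters, 0.21 (SE 0.11, limma adjusted p = 0.441). Of 6 tested genes of endogenous modulators and neurosteroid synthesis, 5 had negative differences, among them Srd5a1, a steroid reductase, with -0.46 (SE 0.28, limma adjusted p = 0.517) and Dbi, a peptide that binds the benzodiazepine site, with -0.29 (SE 0.19, limma adjusted p = 0.549).

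**Figure D5:**
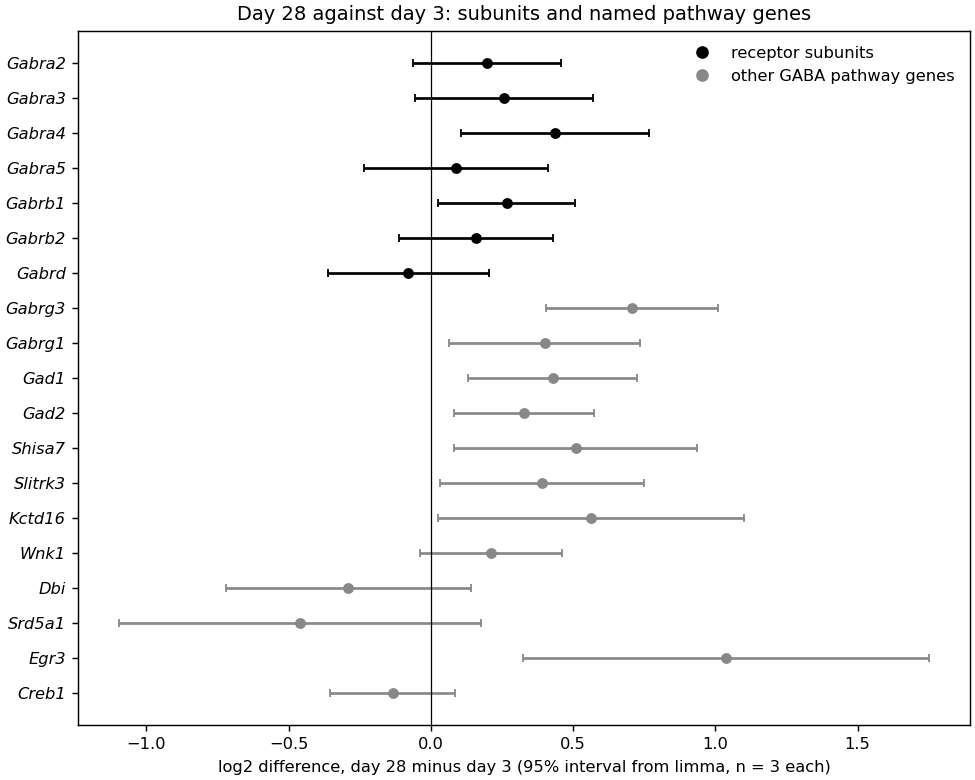
Log2 difference, day 28 minus day 3 (x axis), with the 95% interval from limma (n = 3 each), for the 7 subunit genes in black and 12 other GABA pathway genes in grey. The intervals of Gabra4 and Gabrb1 lie above 0 and those of the other 5 subunit genes include 0, and no gene shown passed after adjustment.

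The genes whose centred log2 values lay nearest to each subunit gene, of 11115 compared, were Vti1a and Pnma2 for Gabra2 (root mean square difference 0.013 and 0.029), Cdk5r1 and Sowaha for Gabra3 (0.029 and 0.037), and Enc1 and Epha4 for Gabra4 (0.051 and 0.052). They were Chmp2b and Cd200 for Gabra5 (0.029 and 0.039), Nrcam and Stk38l for Gabrb1 (0.022 and 0.028), Prrc1 and R3hcc1l for Gabrb2 (0.029 and 0.031), and Apln and Raly for Gabrd (0.036 and 0.041). No subunit gene was among the 2 nearest of another. In this order Gabra2 took place 203 for Gabra3, Gabra3 place 411 for Gabra2, Gabrb2 place 522 for Gabrb1 and Gabrb1 place 310 for Gabrb2. Likeness over 6 libraries of 2 groups describes these libraries alone.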

How the data were processed

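Poly(A) RNA of 6 brain libraries was analysed. The authors deposited log2 values, each a read count over its library's size factor with 1 added: undoing both steps, 100% of values gave whole reads within 0.001. The genome build was GRCm39, per the submitters' processing notes; aligner, counter and annotation are not given in the sources used here. Symbols came from GENCODE M21 and matched 15978 of 16162 tested genes. Genes were tested from a mean of 10 normalized counts. The test was limma 3.58.1 (R 4.3.3) on the deposited log2 values, with group only, an intensity trend and 4 residual degrees of freedom, two-sided, Benjamini-Hochberg adjusted over all genes at 0.05. Intervals are 95%. The added 1 understates changes of low genes. Ratios used exact permutation tests. Members and gene lists were chosen with earlier results of these data known. Named are all members and the 2 genes nearest each member among those averaging at least 100 normalized counts. From each GABA pathway list, genes past the threshold or else the 2 of smallest p are named. Gphn and the other listed subunit genes are named as well. Of the region and cell type lists, what passed is named. So are the markers of neurons, astrocytes and microglia, and the granule cell genes at 0 in a library. The fit was tested on simulated data, in which changes were larger than any member's difference and genes varied independently. Its power for differences as small as those of the members was not tested. Alternatives were the added constant, filter, scaling, variance model, library weights, voom on recovered reads, replicate block, threshold, a granule cell covariate and leaving out libraries. The labels do not say that replicate numbers pair libraries, so they were not taken to do so. Same-numbered libraries had correlations of 0.034, 0.131 and -0.062 between deviations from their group means. With so few libraries a group, these cannot show whether the numbers pair libraries. Figures used matplotlib 3.10.9. Some other genes of the receptor and its pathway are not reported here.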

Additional observations from a re-analysis of the deposited data

How the results depend on the processing

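No subunit gene passed in the main analysis, and the one call under any alternative was Gabra4 without day 3 replicate 3, so that leaving out 1 library gave 0 to 1 subunit genes past the threshold. The same removal gave 4 pathway genes (Gad2, Egr3, Gabrg3 and Slitrk3), with 623 of all genes passing, against 0 pathway genes with each other library left out. A threshold of 0.1 gave 1 pathway gene, Gabrg3. Of 126 differences (7 genes, 18 alternatives), 117 kept their sign, with Gabra4 (0.15 to 0.58), Gabrb1 (0.17 to 0.32) and Gabrb2 (0.10 to 0.27) positive in all 18. Part of these signs could not turn. A changed filter, no intensity trend, the robust prior and the replicate block leave each difference at its main value. Those alternatives bear on the p-values alone. With single libraries left out, Gabra5 ran from -0.018 to 0.20, Gabrd from -0.20 to 0.019, the ratio of Gabra2 over Gabrb1 from -0.17 to 0.013 and that of Gabra3 over Gabra2 from -0.013 to 0.12. So left out, Gabra2 ran from 0.12 to 0.32, Gabra3 from 0.13 to 0.40 and the median of the 7 from 0.12 to 0.31. The granule cell covariate turned Gabra5 to -0.091 and Gabrd to 0.10. Removing both granule-rich libraries turned Gabra2 to -0.057, Gabra3 to -0.023, Gabra5 to -0.14 and Gabrd to 0.16. The cause of these turns was not tested.

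Over all genes, 31 passed. The count was 68 without a filter, 74 with a robust prior, 69 with library weights, 3 with no intensity trend and 2 with the covariate. It was 0 with voom on recovered reads (2113 at an unadjusted p under 0.05) and 0 without both granule-rich libraries (1904 unadjusted), 152 at a threshold of 0.1, and between 1 (day 28 replicate 1 left out) and 623 (day 3 replicate 3 left out) with single libraries removed. With the replicate block, 0 genes passed (2386 unadjusted) and the smallest adjusted p of a subunit gene was 0.142. Not every library correlated best with its own number, which with so few libraries cannot show whether numbers pair them. At 3 libraries a group the narrowest interval of the 7 differences, that of Gabrb1, ran from 0.03 to 0.51.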
